A study of Drosophila melanogaster with 3 samples.

Results

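The 38 rows that FlyBase assigns to the mitochondrial genome (symbols beginning with mt:) were examined among 17768 listed genes in adult *Drosophila* nephrocytes, the large filtering cells beside the heart tube. The rows were taken by symbol and hold 13 protein genes, 2 ribosomal RNA (rRNA) genes, 22 transfer RNA (tRNA) genes and *mt:ori*, the control region. All material came from 1 condition: control females aged 4 days, kept at 25 °C on food with 6% sucrose, that carried *Hand*-GFP together with *Klf15*-Gal4 and UAS-RFP over the balancer chromosome CyO. There were 3 libraries, replicates 1 to 3 of the labels. Each replicate was dissected from 200 flies according to the methods, while the series text gives 100 to 200 nephrocytes and does not say whether that is per library. *Hand* regulatory sequence drives GFP in heart cells and nephrocytes, *Klf15*-Gal4 drives RFP in nephrocytes, and large cells positive for both were sorted. With 1 condition no groups could be compared, so genes were compared within libraries and the spread was taken over 3 libraries.

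The mitochondrial genome of the fly is a small circle transcribed from both strands into long precursors. Most tRNAs lie between the longer genes and are cut out of the precursor, which frees the messenger and ribosomal RNAs, and these can then receive short poly(A) tails. The messengers encode membrane subunits of respiratory complexes I, III and IV and of ATP synthase, whose other subunits, like all proteins that copy and read this genome, are encoded in the nucleus. The labels give polyA RNA as the molecule, so a level here is that of RNA captured and amplified from the tailed fraction. In bulk libraries such as these, fewer cells of a type and less RNA per cell cannot be told apart.

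Nephrocyte genes were present in every library. All 8 nephrocyte markers reached 1 TPM (transcripts in 1000000, a level per length) in each library, as did 40.5% of listed genes, and their summed level was 12045, 12770 and 11119 TPM in libraries 1, 2 and 3. All 7 muscle and heart markers did so as well, with sums of 5014, 2640 and 8469 TPM. Of 5 hemocyte markers 3 reached the threshold (*crq*, *srp* and *He*), and of 5 fat body markers 1 (*FASN1*). None of 3 ovary and none of 2 oenocyte markers did, and *Lsp2*, *Fbp1* and *nanos* were at 0 in all 3 libraries. Expected counts, the reads that RSEM assigned to a gene, summed to 8801238, 7808930 and 8797916.

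Mitochondrial genes took a large share of the reads, and 1 RNA, *mt:lrRNA*, took most of that share. They held 12.1%, 14.96% and 9.04% of expected counts in libraries 1, 2 and 3, or 12.02 ± 2.96% (SD, n = 3). By TPM their share was 15.1%, 16.5% and 11.6%. Library 3 was lowest and library 2 highest by either measure. *mt:lrRNA*, the RNA of the large subunit of the mitochondrial ribosome, supplied 71.4 ± 2.46% of mitochondrial counts (SD, n = 3), and the 13 protein genes supplied 28.5 ± 2.46%. The protein genes alone were 3.38 ± 0.553% of all counts (SD, n = 3). By TPM, complex IV made up 47.7 ± 0.763% of the protein genes' sum, complex I 21.8 ± 1.35%, ATP synthase 20.9 ± 1.44% and complex III 9.59 ± 0.405% (SD, n = 3).

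More than 3 expected counts in every library were found for 15 of the 38 members, which were the 13 protein genes and both rRNA genes. Among all listed genes 44.2% met this rule. The 22 tRNA genes and *mt:ori* had no count in any library. A count of 0 allows up to 3 counts, or 0.341, 0.384 and 0.341 CPM (counts in 1000000) in libraries 1, 2 and 3, and this limit covers counting error only. The tRNA genes, which are 61 to 73 bases long in the tables, shared this result with every other very short gene. None of 672 listed genes of at most 100 bases had a count in any library, nor did any of 290 nuclear tRNA genes. Whether mitochondrial tRNAs were present in the cells could therefore not be read from these tables.

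**Figure D1:**
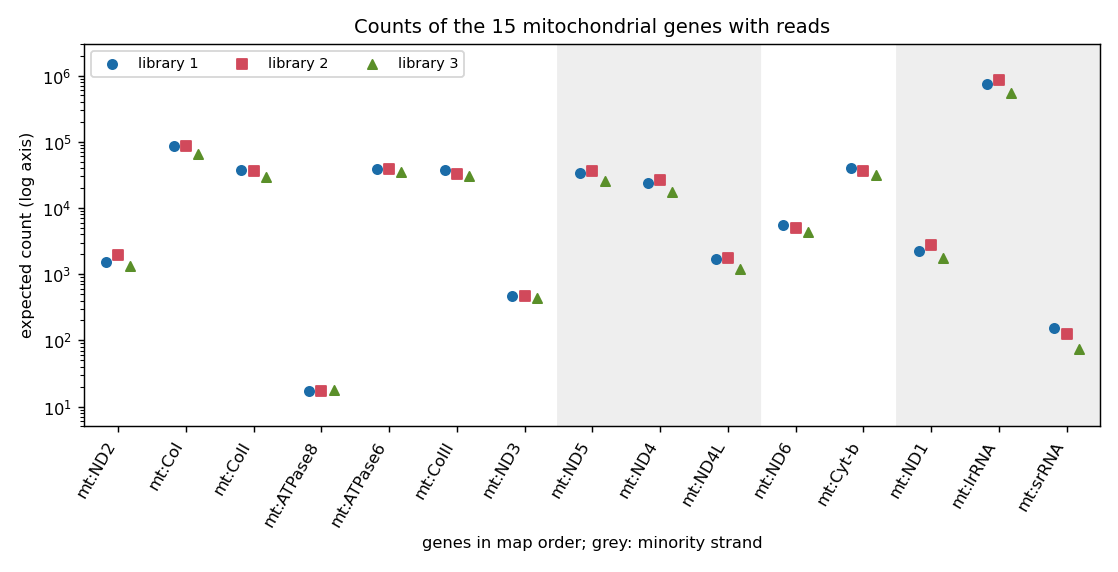
Expected counts (log axis) of the 15 mitochondrial genes with reads, in map order, with 1 point per library and the minority strand shaded grey. *mt:lrRNA* stands above all other members in each library, and *mt:ATPase8* is lowest at 17 to 18 counts.

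The ribosomal RNAs lay at opposite ends of the range of the 14 members with a TPM. *mt:lrRNA* (FBgn0013686, minority strand, bases 12735 to 14058 of the mitochondrion_genome sequence in BDGP6.54) had 754316, 865087 and 550585 counts. At 92083, 106494 and 67695 TPM it ranked 1st among all listed genes in each library. *mt:srRNA* (FBgn0013688, minority strand, 14131 to 14916), the RNA of the small ribosomal subunit, had only 152, 126 and 73 counts. Its 95% exact Poisson intervals, which cover counting error only, were 129 to 178, 105 to 150 and 57.2 to 91.8 counts. The interval of library 3 did not overlap those of libraries 1 and 2. On the TPM scale *mt:lrRNA* exceeded *mt:srRNA* 2495-fold, 3456-fold and 3780-fold, although 1 tRNA gene alone, for valine, separates them on the map. The log2 ratio was 11.64 ± 0.32 (SD, n = 3).

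The messengers of 3 subunits of cytochrome c oxidase, complex IV, were among the most abundant in these libraries by TPM. *mt:CoI*, which encodes the catalytic subunit (FBgn0013674, majority strand, 1474 to 3009), stood at 8734, 8775 and 6800 TPM, from 85562, 85235 and 66181 counts. *mt:CoII* (FBgn0013675, majority strand, 3083 to 3767), which carries the copper site that accepts electrons from cytochrome c, stood at 11103.5, 10921 and 8762 TPM. *mt:CoIII* (FBgn0013676, majority strand, 4736 to 5524), the remaining core subunit, stood at 8923, 7836 and 7343 TPM. Libraries 1 and 2 were higher than library 3 for all of them. Their means differed by at most 1.28-fold, and they ranked 8th to 11th among listed genes by mean TPM. *mt:CoII* was above *mt:CoIII* in 3 of 3 libraries (log2 ratio 0.35 ± 0.12, SD, n = 3), while *mt:CoI* was above *mt:CoIII* in library 2 only (log2 ratio 0.01 ± 0.14, SD, n = 3), a difference smaller than its spread.

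*mt:ATPase6*, which encodes the subunit that forms the proton path of ATP synthase (FBgn0013672, majority strand, 4062 to 4736), was the highest protein gene at 11685, 11852 and 10903 TPM. It ranked 7th in each library. It was also steadier than most members, with an SD of log2(TPM + 1) of 0.06. *mt:ATPase8* (FBgn0013673, majority strand, 3907 to 4068), the gene of a small accessory subunit, overlaps *mt:ATPase6* by 7 bases and is read from the same messenger. It had 17, 17 and 18 counts against 38331, 38634 and 35348 for *mt:ATPase6*, a log2 ratio of counts of 11.08 ± 0.12 (SD, n = 3). The exact 95% Poisson interval of 17 counts is 9.90 to 27.2. All 3 values lay within the interval of each other.

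The low value of *mt:ATPase8* went with its length. RSEM scales TPM by an effective length, the transcript length less what the fragments take, which was about 242, 241 and 246 bases for long genes in libraries 1, 2 and 3. With 162 bases *mt:ATPase8* had an effective length of 0 and was listed at 0 TPM in every library. It was the only 1 of 1035 genes with an effective length of 0 that had any count, and the shortest gene of the table with one. No listed gene shorter than *mt:ATPase8*, 1030 in all, had a count. Divided by full length the counts of *mt:ATPase6* remained 541-fold, 545-fold and 471-fold higher. How many reads of the shared messenger were left uncounted for the shorter gene was not tested.

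*mt:Cyt-b*, which encodes the cytochrome b subunit of complex III (FBgn0013678, majority strand, 10499 to 11635), stood at 5829, 5304 and 4743 TPM and ranked 13th by its mean. Just before it, with 3 bases and no tRNA gene between them, lies *mt:ND6* (FBgn0013685, majority strand, 9971 to 10495), a complex I gene at 2532, 2302 and 2047 TPM. *mt:Cyt-b* exceeded *mt:ND6* 2.30-fold, 2.30-fold and 2.32-fold. This ratio was the steadiest of the 14 pairs examined, with a log2 value of 1.21 ± 0.005 (SD, n = 3). With counts divided by full length it was 3.34-fold, 3.33-fold and 3.39-fold, with a log2 SD of 0.01.

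The 7 complex I genes, which encode the core of the membrane arm of that complex, fell into separate ranges of level. Of these, *mt:ND5*, *mt:ND4* and *mt:ND4L* follow each other on the minority strand and had nearly equal levels per length. *mt:ND5* (FBgn0013684, 6409 to 8125) stood at 3075, 3269 and 2317 TPM. *mt:ND4* (FBgn0262952, 8207 to 9545) stood at 2857, 3202 and 2133 TPM. *mt:ND4L* (FBgn0013683, 9545 to 9835), whose last base *mt:ND4* shares, stood at 3225, 3333 and 2378 TPM. All of them were highest in library 2 and lowest in library 3, and the means of the 3 genes differed by at most 1.09-fold. *mt:ND4L* has an effective length of only 67.7 to 69.95 bases. With counts divided by full length *mt:ND4* was 3.06-fold, 3.28-fold and 3.15-fold above *mt:ND4L*, while by TPM it was below it in 3 of 3 libraries (log2 ratio -0.13 ± 0.06, SD, n = 3).

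*mt:ND3*, *mt:ND1* and *mt:ND2* formed a lower range. *mt:ND3* (FBgn0013681, majority strand, 5608 to 5961) stood at 513, 505 and 479 TPM, from 475, 468 and 435 counts. *mt:ND1* (FBgn0013679, minority strand, 11721 to 12659) stood at 422, 525 and 339 TPM. *mt:ND2* (FBgn0013680, majority strand, 240 to 1263), the lowest protein gene with a TPM, stood at 258, 336 and 223 TPM. *mt:ND1* and *mt:ND2* were highest in library 2 in a more marked way than other protein genes, at 1.25-fold and 1.302-fold their level in library 1. The highest of the complex I genes exceeded the lowest 10.9-fold by mean TPM, against 1.28-fold within complex IV.

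**Figure D2:**
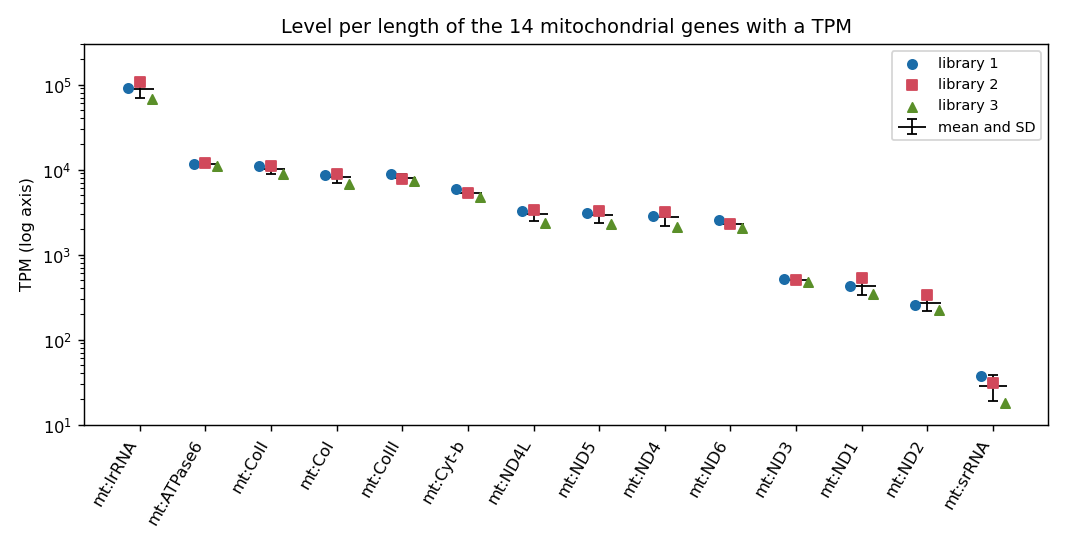
TPM (log axis) of the 14 mitochondrial genes that have one, ordered by mean, with 1 point per library and bars for mean ± SD over 3 libraries. Below *mt:lrRNA* the protein genes spread over 42.2-fold, with a gap between *mt:ND6* and *mt:ND3*, and *mt:srRNA* lies lowest.

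Ordered by mean TPM, the 12 protein genes with a value ran *mt:ATPase6*, *mt:CoII*, *mt:CoI*, *mt:CoIII*, *mt:Cyt-b*, *mt:ND4L*, *mt:ND5*, *mt:ND4*, *mt:ND6*, *mt:ND3*, *mt:ND1* and *mt:ND2*. The order of neighbours was the same in every library for 9 of 11 neighbouring pairs. The exceptions were *mt:CoI* and *mt:CoIII*, and *mt:ND3* and *mt:ND1*, whose log2 ratio of 0.24 ± 0.28 (SD, n = 3) was smaller than its spread. The order also depended on the effective lengths of short genes. With counts divided by full length, *mt:ND4L* was below *mt:ND6*, and *mt:ND3* was below *mt:ND1* and *mt:ND2*, in every library. By TPM the widest step was from *mt:ND6* down to *mt:ND3*, at a log2 ratio of 2.20 ± 0.10 (SD, n = 3). Spearman's rho between length and mean TPM, which is already divided by effective length, was 0.01 across these 12 genes. Between length and mean expected count it was 0.58 across all 13 protein genes. The genes share libraries and are not independent.

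Genes side by side on the map, and on the same strand, often differed many-fold. *mt:CoI* exceeded *mt:ND2*, the protein gene before it on the majority strand, 33.8-fold, 26.1-fold and 30.5-fold. *mt:CoIII* exceeded *mt:ND3*, the protein gene after it, 17.4-fold, 15.5-fold and 15.3-fold. On the minority strand *mt:lrRNA* exceeded *mt:ND1* 218-fold, 203-fold and 199-fold. All of these ratios were many times their spread, with log2 values of 4.91 ± 0.19, 4.004 ± 0.10 and 7.69 ± 0.07 (SD, n = 3). Across the opposite strands *mt:Cyt-b* exceeded its neighbour *mt:ND1* 13.8-fold, 10.1-fold and 13.97-fold. A smaller step was seen from *mt:ATPase6* to *mt:CoIII*, which overlap by 1 base (1.31-fold, 1.51-fold and 1.48-fold). *mt:CoI* exceeded *mt:Cyt-b*, which is not its neighbour on the map, 1.498-fold, 1.65-fold and 1.43-fold.

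Of the 14 pairs, 13 had the same sign in every library. Each of these gave p = 0.25 when the signs of the library values were flipped in an exact permutation test (two-sided), or 0.269 after Benjamini-Hochberg adjustment over the 14. This is the smallest p that 3 libraries allow, so the test could not reach 0.05 for any pair. For *mt:CoI* over *mt:CoIII* the exact test gave p = 1. *mt:CoI* was 1.27-fold, 1.24-fold and 1.29-fold below *mt:CoII* by TPM, but with counts divided by full length it was 1.02-fold, 1.04-fold and 1.02-fold above it.

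By protein genes alone, the strand that carries 9 of them (majority strand) held higher levels per length than the strand that carries 4. The mean over its 8 genes with a TPM was 6197, 5979 and 5162 TPM, against 2394, 2582 and 1792 TPM on the minority strand. In libraries 1, 2 and 3 it was higher by 2.59-fold, 2.32-fold and 2.88-fold. On the log2 scale this was 1.37 ± 0.16 (SD, n = 3), with p = 0.25 by the exact permutation test, the smallest possible. The ranges of single genes overlapped, since *mt:ND2*, *mt:ND3* and *mt:ND6* on the majority strand were below *mt:ND4L*, the highest of the minority strand. All 4 minority-strand genes belong to complex I, and every gene of the other complexes is on the majority strand. Strand and complex can therefore not be told apart over all protein genes. Within complex I the majority strand was not the higher one. There *mt:ND2*, *mt:ND3* and *mt:ND6* had means of 272, 499 and 2294 TPM. On the minority strand *mt:ND1*, *mt:ND4*, *mt:ND5* and *mt:ND4L* had 429, 2731, 2887 and 2978 TPM. *mt:lrRNA*, the most abundant member, is on the minority strand and was not part of the comparison of strands. Its level alone exceeded the summed level of all protein genes (59155, 58162 and 48467 TPM in libraries 1, 2 and 3). With it included, the minority strand had the higher summed TPM. The strand setting of the counting is not given in the sources used here. No protein or rRNA gene overlaps another on the opposite strand in the annotation. Whether reads from precursors of the opposite strand were counted to a gene was not tested.

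Subunits encoded in mitochondria were far above their nuclear-encoded partners in level per length. The nuclear genes compared are those of a chosen list of 57, which may not hold every subunit. For complex IV the median of the 3 mitochondrial genes was 8923, 8775 and 7343 TPM, and that of 9 nuclear genes was 1083, 1170 and 1268.5 TPM. All 3 mitochondrial genes lay above *COX4*, the highest nuclear one at 1706 ± 132 TPM (SD, n = 3), which was followed by *COX6B* at 1461 ± 81.9 and *cype* at 1349 ± 129 TPM. *COX7C* was lowest at 669 ± 46.8 TPM (SD, n = 3). The within-library ratio of medians was 8.24-fold, 7.50-fold and 5.79-fold, and was lowest in library 3.

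The same held in the other complexes. *mt:Cyt-b* exceeded the median of 9 nuclear complex III genes 12.2-fold, 9.81-fold and 7.81-fold. Those genes ranged from *ox* at 331 ± 43.5 TPM up to *RFeSP*, the Rieske iron-sulfur protein, at 684 ± 87.4, *UQCR-14* at 781 ± 116 and *UQCR-Q* at 999.9 ± 93.5 TPM (SD, n = 3). *mt:ATPase6* exceeded the median of 13 nuclear ATP synthase genes 12.2-fold, 13.0-fold and 9.37-fold, and it was above *ATPsynC* (2545.5 ± 443 TPM), *ATPsynF* (1603 ± 184 TPM) and *ATPsynG* (1376 ± 152 TPM), the highest of them. *ATPsyndelta* was lowest at 597 ± 122 TPM (SD, n = 3). *mt:ATPase8*, which has no TPM, was not part of this comparison.

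In complex I the ratio of medians was 13.3-fold, 11.3-fold and 8.13-fold over 26 listed nuclear genes. Here the ranges overlapped. Of 7 mitochondrial genes 4 lay above every listed nuclear gene, while *mt:ND3*, *mt:ND1* and *mt:ND2* lay below *ND-MLRQ* at 868 ± 79.8 TPM (SD, n = 3). By mean, *ND-AGGG* at 569.5 ± 85.3 TPM was above them as well, and *ND-15* at 331 ± 6.51 TPM was above *mt:ND2* (SD, n = 3). *ND-B8* stood apart at 1.79, 0 and 0.61 TPM. Each of the 4 ratios was larger than 1 in 3 of 3 libraries, with log2 values of 3.42 ± 0.36, 3.29 ± 0.32, 2.83 ± 0.26 and 3.51 ± 0.25 for complexes I, III, IV and ATP synthase (SD, n = 3). In complex I the mean in place of the median lowered the log2 ratio to 2.79, and counts divided by full length lowered it to 2.27.

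**Figure D3:**
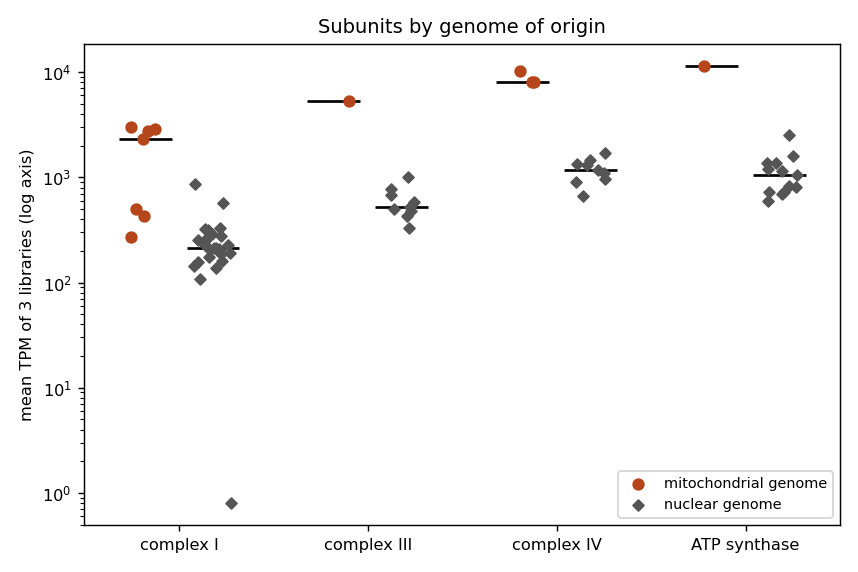
Mean TPM over 3 libraries (log axis) of subunits encoded in the mitochondrial genome (circles) and in the nuclear genome (diamonds), by complex, with a line at the median of each set. The ranges of the listed genes are separate in complexes III and IV and in ATP synthase. They overlap in complex I, where *ND-B8* is the single low gene of the nuclear list. For ATP synthase only *mt:ATPase6* is shown, since *mt:ATPase8* has no TPM.

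All 14 members with a TPM were lowest in library 3, where 13.8% of the 7685 genes with a mean of at least 1 TPM were lowest. None was highest there. *mt:ATPase8*, which has no TPM, had 17, 17 and 18 counts. Its exact 95% Poisson intervals, from 9.90 to 28.4 counts over the libraries, were too wide to tell whether it differed likewise. Against library 1 the difference in library 3 ranged from log2 values of -0.10 for *mt:ND3* and *mt:ATPase6* to -0.44 for *mt:lrRNA* and -1.04 for *mt:srRNA*, with a median of -0.33. Over all genes the median was 0.19. The count of 14 was the same with TPM rescaled without mitochondrial genes and with edgeR's TMM or DESeq2 scaling, under which 18.3%, 30.4% and 27.8% of all genes were lowest in library 3.

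Nuclear-encoded subunits went the other way by TPM. Of 56 with a mean of at least 1 TPM, 52 were highest in library 3 and none was lowest there, where 52.1% of all genes were highest. Their median log2 difference of library 3 to library 1 was 0.33. The count depended on the scale. It was 27 of 56 with TMM factors and 30 of 56 with DESeq2 size factors, where 27.4% and 30.4% of all genes were highest in library 3. The median stayed above 0 on these scales, at 0.15 and 0.18. That of the mitochondrial genes was -0.51 and -0.49.

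The muscle and heart markers also differed in library 3. Their summed level was 1.58 times its mean in library 3 and 0.491 times in library 2, and all 7 were highest in library 3. The sum of nephrocyte markers was 0.928 times its mean in library 3 and 1.07 times in library 2, and that of the mitochondrial genome 0.807 and 1.14 times. Single nephrocyte markers differed in direction. Of the 8, 4 were lowest in library 3 (*Hand*, *Klf15*, *Cubn* and *Cubn2*), while *sns*, *kirre* and *pyd* were lowest in library 2 and *Amnionless* in library 1. Hemocyte markers summed to 564, 388 and 489 TPM, a sum that was highest in library 1. Singly, *crq*, *He* and *NimC1* were highest in library 1. *srp* (150, 55.5 and 158 TPM) and *Hml*, at 0.01 TPM, were highest in library 3. The part of muscle or heart material in the lower mitochondrial values of library 3 was not tested.

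**Figure D4:**
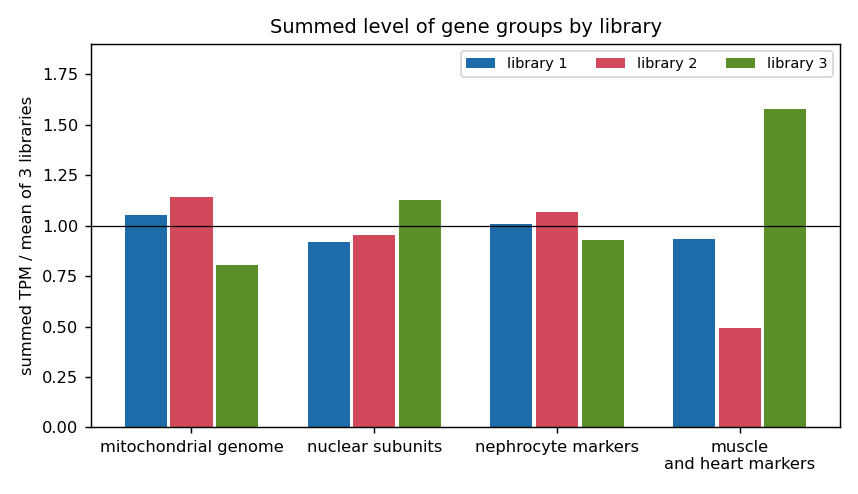
Summed TPM of 38 mitochondrial genes, 57 nuclear-encoded subunits, 8 nephrocyte markers and 7 muscle and heart markers in each library, divided by the group's mean over 3 libraries (bars from 0). By these sums library 3 is lowest for mitochondrial genes and nephrocyte markers and highest for nuclear subunits and muscle markers.

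The members did not all differ between libraries to the same degree. The SD of log2(TPM + 1) over 3 libraries was 0.24 in the median of the 14 members, against 0.27 over all 7685 genes and 0.20 over the nuclear subunits. The order of the first 2 depended on the scale, since with TMM factors the members' median was 0.37 against 0.26 over all genes, and with DESeq2 size factors 0.35 against 0.28. It was lowest for *mt:ND3* (0.05) and *mt:ATPase6* (0.06) and highest for *mt:srRNA* (0.52), which rests on the fewest counts of the 14. Without replicate 3 the median was 0.10.

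Between libraries 1 and 2 the members did not move together. Against library 1, *mt:ND2* (0.38 on the log2 scale), *mt:ND1* (0.32), *mt:lrRNA* (0.21), *mt:ND4* (0.16) and *mt:ND5* (0.09) were higher in library 2. *mt:CoIII* (-0.19), *mt:ND6* and *mt:Cyt-b* (each -0.14) and *mt:srRNA* (-0.26) were lower. *mt:CoI*, *mt:CoII*, *mt:ATPase6*, *mt:ND3* and *mt:ND4L* lay between -0.02 and 0.05. Neighbours such as *mt:ND6* and *mt:Cyt-b* moved by the same amount, while *mt:ND2* and *mt:CoI* did not. Spearman's rho between the length of a member and its level in library 2 relative to the other libraries (log2) was 0.42 across 14 genes, which share these libraries and are not independent.

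**Figure D5:**
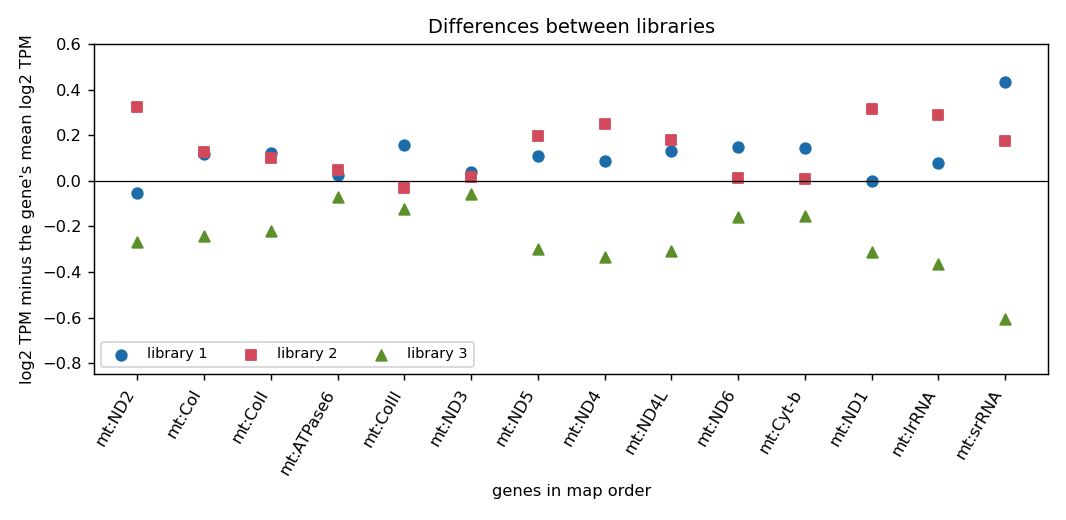
Log2 TPM of each of 14 mitochondrial genes in each library minus the mean of its 3 log2 values, in map order. Library 3 is lowest for every gene shown, by the most for *mt:srRNA* and by the least for *mt:ND3*.

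The 40 nuclear genes listed for copying, reading and processing the mitochondrial genome and for charging its tRNAs were all present. Their mean levels ran from 1.74 TPM (*Top3alpha*) to 90.6 TPM (*scu*). These were below every mitochondrial protein gene with a TPM, but 5 of those named here (*scu*, *SLIRP1*, *mtTFB1*, *SLIRP2* and *mtSSB*) were above *mt:srRNA*, at 28.5 TPM. All 40 listed genes of this kind reached 1 TPM in every library, as did 40.5% of all 17768 genes. The lists were chosen with earlier results of these data known, so this count is a description and no test. At thresholds of 5 and 10 TPM in every library, 27 and 14 of the 40 remained. Among 7 genes listed under transcription, *mtTFB1*, related to rRNA methyltransferases, was highest at 41.02 ± 6.284 TPM. It was followed by *TFAM*, which packages the DNA, at 21.3 ± 2.39, and *mTerf5* at 13.3 ± 1.34 TPM (SD, n = 3). *PolrMT*, the mitochondrial RNA polymerase, was lowest, at 4.60, 2.08 and 4.49 TPM.

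Among 6 genes listed under replication, *mtSSB*, the single-strand DNA binding protein, stood at 33.9 ± 2.38 TPM. *EndoG*, a nuclease, stood at 19.8 ± 5.02 and *PolG2*, the accessory subunit of the DNA polymerase, at 11.9 ± 1.302 TPM (SD, n = 3). *Top3alpha*, a topoisomerase, was lowest at 1.74 ± 0.55 TPM. Among 11 RNA processing genes, *scu*, a component of mitochondrial RNase P that is also a dehydrogenase, stood at 90.6 ± 23.5 TPM, and the RNA binding genes *SLIRP1* and *SLIRP2* at 47.7 ± 6.29 and 40.9 ± 11.7 TPM (SD, n = 3). *RNaseZ*, which trims the 3′ ends of tRNAs, was lowest at 4.64 ± 1.08 TPM.

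Among 16 mitochondrial aminoacyl-tRNA synthetase genes and relatives, which serve the tRNAs that had no counts here, *PheRS-m* was highest at 23.4 ± 1.24 TPM. *AspRS-m* at 22.1 ± 4.06 and *TrpRS-m* at 11.9 ± 0.72 TPM followed, and *ValRS-m* was lowest at 1.93 ± 0.19 TPM (SD, n = 3). The summed level of the synthetase list was 143 ± 11.2 TPM, against 55261 ± 5905 TPM for the 13 mitochondrial protein genes (SD, n = 3).

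All 114 expected counts of the members were whole numbers within 0.005, while 8.27% to 8.43% of all counts per library were not. Those of the 22 tRNA genes and *mt:ori* were 0 and thus whole in any case. No fractional assignment of reads was seen in the 15 members with counts. Transcripts outside the annotation, such as unprocessed precursors or nuclear copies of mitochondrial DNA, were not analysed here.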

How the data were processed

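RNA of sorted nephrocytes was sequenced in 3 libraries of 1 condition; the labels do not say more on how replicates were separated, and spreads may be partly technical. Mapping by the authors used STAR 2.7.5c, and RSEM 1.3.3 gave the gene values on FlyBase annotation 6.28 (Release 6). The deposited expected counts are RSEM estimates and are not normalized. The deposited TPM and FPKM values were scaled by the authors with RSEM by effective length. FPKM served as an alternative unit only. The deposited length and effective length are in bases. The sources used here give no read length, strand setting or filter.

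Symbols were matched by gene ID for 17671 genes and by transcript for 56, leaving 41 unnamed. Coordinates are from the BDGP6.54 annotation (Ensembl release 115). Lengths of 33 of 38 members were equal in both, and the other 5 are tRNA genes. Sequences of the members were not used here.

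Levels are given per library and as mean ± SD. Ratios were taken within libraries on TPM, or on expected counts for *mt:ATPase8*, whose TPM is 0 and which was left out of medians and means of TPM. Ratios of the 14 pairs (Benjamini-Hochberg adjusted) and of the strands were tested by flipping the signs of the library values in an exact permutation test, two-sided. Scaling factors were computed with edgeR 4.0.16 (TMM) and DESeq2 1.42.0 from rounded expected counts, using genes that reached 10 in each library. Statistics were tested on simulated data. Other software was pandas 2.3.3, scipy 1.17.1, matplotlib 3.10.9 and numpy 2.4.6 in Python 3.11.15, and R 4.3.3. Members were taken by symbol. This set of genes, the pairs and the lists were chosen with earlier results of these data known. All mitochondrial protein and rRNA genes were to be named, with the 5 highest tRNAs (none had counts) and the 3 highest and the lowest gene of each nuclear list. Cell type markers were summarised by list.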

Additional observations from a re-analysis of the deposited data

How the results depend on the processing

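Of 182 alternatives for 27 results, 164 left the value within its limit, 13 moved it and 5 turned a direction. Those with FPKM, which is proportional to TPM within a library, could not change a share or ratio and are no check on it. Without the rRNA genes, which equals protein genes only, the mitochondrial share was 3.38% of counts and 5.53% of TPM. Of 95 alternatives for single pairs 90 kept the direction. With counts divided by full length, and with counts uncorrected for length, *mt:ND4* over *mt:ND4L* became 1.66 and 3.86 (log2), and *mt:CoI* over *mt:CoII* became 0.039 and 1.20. *mt:CoI* over *mt:CoIII* ranged from -0.071 to 0.066 when a replicate was left out. The complex I log2 ratio to nuclear subunits was 2.79 with means and 2.27 per full length, and that of complex IV 3.37 per full length. The median SD of log2 levels was 0.369 with TMM factors and 0 with no filter, which adds genes at 0, and 0.097 to 0.302 with a replicate left out. Of 40 upkeep genes 14 reached 10 TPM in every library. Nuclear subunits highest in library 3 numbered 27 with TMM and 30 with DESeq2 scaling. Alternatives per full length for complexes, without genes under 400 bases (strand ratio 1.71 in place of 1.37, complex I 3.42 as before), the counts by library, the spread of all genes on other scales and *mt:ATPase8* at 0 TPM were chosen after seeing the data. No paired analysis was possible because there is 1 condition, so no groups share replicate numbers, and the gene ratios were taken within libraries. FPKM and a pseudocount were not run for *mt:ATPase6* over *mt:ATPase8*, since the latter has no TPM. With 3 libraries the smallest exact p is 0.25.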
